A study of Mus musculus with 8 samples.

Results

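The p53 response of the colon was followed through 10 genes: Trp53, which encodes the p53 protein itself, and 9 of its best-known transcriptional targets, namely Cdkn1a, Mdm2, Ccng1, Bax, Bbc3, Phlda3, Eda2r, Zmat3 and Sesn2. The genes were taken by name from a table of 26008 genes, and each of the 10 was found once. After adjustment over all genes tested, 0 of the 10 differed between the genotypes. Cdkn1a, Mdm2, Ccng1 and Trp53 had nearly equal levels in both genotypes. Zmat3 was higher in every penk-/- chimera than in every penk+/+ chimera, by 1.16-fold on average. Such a separation with penk-/- higher was seen for 2.89% of all genes tested. Bbc3 was lower on average by a log2 of 0.49, and neither Zmat3 nor Bbc3 had an adjusted p below 0.05.

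The samples are colonic biopsies of 8 chimeric mice, 4 penk-/- and 4 penk+/+, with 1 library per mouse and no pooling. All recipients were wild-type C57BL/6JRj males, 7 weeks old when they received a lethal dose of 1100 rad and then bone marrow of male donors aged 9 to 11 weeks. The colon was examined 18 weeks later, within the 18 to 21 weeks given for the mice of the study as a whole. The donors were either penk-/- mice or wild-type penk+/+ mice. The penk-/- mice are a germline knockout of the gene for proenkephalin (the precursor of the enkephalins, which are opioid peptides). The genotype is therefore that of the cells derived from the bone marrow. Epithelium, smooth muscle, neurons and the other cells that do not come from the graft were wild type in both groups. Both groups were irradiated and grafted, so the comparison is between donor genotypes, and the effect of the irradiation itself cannot be measured in these samples. A biopsy holds all layers of the colon wall, and fewer cells of a type and less RNA per cell cannot be told apart in it.

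p53 is a transcription factor that is kept scarce by the ubiquitin ligase Mdm2 and is stabilized when DNA is damaged. It then binds DNA as a tetramer, at response elements made of a pair of half-sites, and switches on genes for cell cycle arrest, DNA repair and apoptosis, together with Mdm2, which closes a feedback loop. In the intestine, irradiation is known to induce p53 within hours in the crypts, where Bbc3 (PUMA) drives the death of epithelial progenitors and Cdkn1a (p21) arrests those that survive.

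The response elements are shown because they are the feature through which these genes are grouped. The p53 response element was searched for over 2500 bases on either side of the start of the canonical transcript of each gene, as a pair of adjacent half-sites of 10 bases, with at most 2 mismatches and none in the CNNG core of either half-site, on GRCm39. The motif is its own reverse complement, so that both strands were read at once. Of the 10 genes, 4 held such a sequence and 6 did not, against 5.34% of the 16860 genes scanned. With at most 1 mismatch the element was found in 2 of the 10 genes (0.783% of all genes), and with no mismatch in 1, Zmat3 (0.101%, or 17 genes). The sequences are written on the strand of the gene, and the capitals mark the 4 core letters of each half-site. Distances run from the start of that transcript, which may lie inside the gene interval given further on, to the middle of the element.
Zmat3, intron 1, 1419 bases after the start, no mismatch (chr3:32418480-32418499, minus strand): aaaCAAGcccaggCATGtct
Ccng1, position -160 from the start, 1 mismatch (chr11:40646289-40646308, minus strand): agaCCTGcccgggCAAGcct
Ccng1, intron 1, 366 bases after the start, 1 mismatch (chr11:40645763-40645782, minus strand): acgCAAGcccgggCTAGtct
Bax, intron 1, 318 bases after the start, 2 mismatches (chr7:45115998-45116017, minus strand): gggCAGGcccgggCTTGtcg
Eda2r, intron 1, 690 bases after the start, 2 mismatches (chrX:96420140-96420159, minus strand): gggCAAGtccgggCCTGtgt
These matches describe the sequence only. A gene without a match in this window may hold the element elsewhere or in a form with more mismatches.

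The libraries held 33.1 M to 50.7 M reads (median 38.5 M). The values are normalized counts, which are reads per gene scaled by the size factor of their library. Penk, the gene deleted in the donors, was at 528 ± 67.5 normalized counts with penk-/- donors and at 541 ± 73.2 with penk+/+ donors (SD, n = 4 each), with a log2 difference of -0.03. The enteric neurons of the recipient also express this gene, and its level in a whole biopsy does not check the donor genotype. Epithelial, smooth muscle and leukocyte markers were present in every library. Pbsn, which encodes probasin, a secretory protein of the prostate, had 105658 normalized counts in penk-/- replicate 3 and 111024 in penk+/+ replicate 4, and 0 to 13425 elsewhere. These 2 libraries, 1 of each genotype, stand apart and go against a label of colon alone. Pbsn was also at 7638 and 4803 in penk-/- replicates 2 and 4 and at 13425 and 2398 in penk+/+ replicates 1 and 2. It was 0 in penk-/- replicate 1 and penk+/+ replicate 3. Where it matters, values are given with and without the 2 libraries richest in Pbsn. Leaving these 2 out does not make the rest free of this transcript. No library repeated another, since the closest 2 still differed by a chi-square of 10.3 per degree of freedom.

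Of the 10 genes, 7 were higher and 3 lower in penk-/- chimeras, with a median log2 fold change of 0.05, against 51.1% of all 19127 genes tested higher and a median of 0.0051. The signs of Cdkn1a and Ccng1, both among the 3 lower genes, turned with quantile normalization (log2 fold changes of 0.06 and 0.03). With limma and Benjamini-Hochberg adjustment over all genes, 0 of the 10 had an adjusted p below 0.05, as had 0% of all genes, whose smallest adjusted p was 0.132. The authors' own DESeq2 analysis did call a few genes different between the genotypes, at thresholds of fold change and false discovery rate. It was not repeated here. At an unadjusted p below 0.05, 1 of the 10 genes was higher (Zmat3), where 4.3% of all genes were, and 1 was lower (Bbc3), where 5.33% were. The genotypes did not overlap with penk-/- higher for 1 gene (Zmat3), which was so for 2.89% of all genes, and with penk-/- lower for 0 of the 10, which was so for 2.74%. The median size of the difference, regardless of sign, was 0.10 for the 10 genes and 0.12 for all genes. An exact permutation test of 4 mice against 4 has 70 assignments and can give no two-sided p below 0.0286. p-values measure the spread between these mice.

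**Figure D1:**
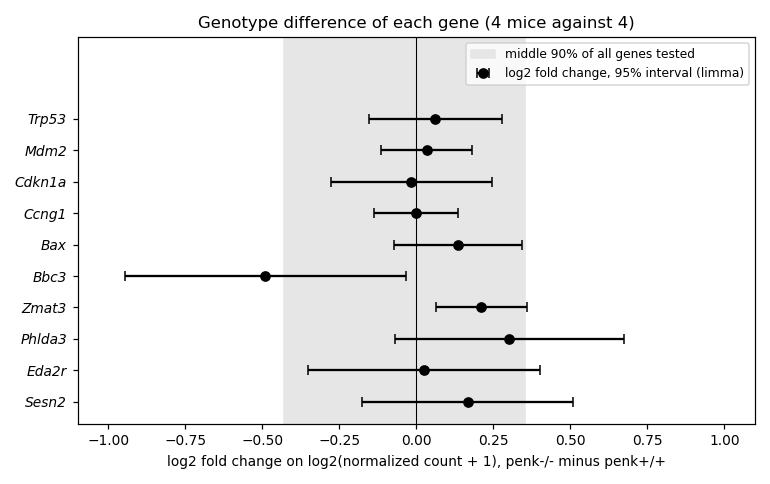
Log2 fold change of each of the 10 genes, penk-/- minus penk+/+ (points), with the 95% confidence interval from limma (bars), on the log2(normalized count + 1) scale. The shaded band holds the middle 90% of all genes tested, from -0.43 to 0.35. The intervals of Zmat3 (0.06 to 0.36) and Bbc3 (-0.95 to -0.04) leave out 0, and those of the other 8 genes include it.

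Trp53 (ENSMUSG00000059552, GRCm39 chr11:69469669-69482701) had 1481, 1818, 1579 and 1705 normalized counts in penk-/- replicates 1 to 4 and 1495, 1775, 1675 and 1376 in penk+/+ replicates 1 to 4. The 2 ranges nearly coincided, with the highest value in a penk-/- and the lowest in a penk+/+ chimera. The log2 fold change was 0.06 (95% interval -0.15 to 0.28, limma adjusted p = 0.883, exact permutation test, two-sided, p = 0.543). This is the level of its mRNA, whereas p53 is mainly controlled through the stability of the protein. Wrap53, which overlaps Trp53 on the opposite strand, had a log2 fold change of 0.06 as well.

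Mdm2 (ENSMUSG00000020184, chr10:117524780-117546730), the ligase that marks p53 for degradation and is itself a p53 target, had 2389, 2204, 2628 and 2521 normalized counts in penk-/- chimeras. In penk+/+ chimeras it had 2419, 2267, 2386 and 2430.0, all within the penk-/- range. The log2 fold change of 0.03 (standard error 0.07, interval -0.11 to 0.18) came with an adjusted p of 0.912 with limma. Mdm2 was among the least variable of the 10 genes, with a coefficient of variation between mice of 5.75% within genotypes, and the 95% interval of its fold reached from 0.924 to 1.13.

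Cdkn1a (ENSMUSG00000023067, chr17:29309936-29319701) encodes p21, the inhibitor of cyclin-dependent kinases through which p53 arrests the cell cycle. Its normalized counts were 10142, 7901, 7268 and 9317 in penk-/- chimeras. In penk+/+ chimeras they were 9734, 7574, 8474 and 9109. Replicates 1 and 4 of each genotype were the 4 highest and replicates 2 and 3 the 4 lowest. The labels do not say that these numbers pair the mice. The means were 8657 ± 1309 and 8723 ± 923 (SD, n = 4 each), with a log2 fold change of -0.02 (interval -0.28 to 0.24, limma adjusted p = 0.980, exact permutation test, two-sided, p = 0.857). Dino, a noncoding RNA that overlaps Cdkn1a on the opposite strand, was at 95.9 normalized counts on average (log2 fold change -0.16).

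Ccng1 (ENSMUSG00000020326, chr11:40639377-40646148), whose product cyclin G1 acts in the feedback on Mdm2, carries both elements with 1 mismatch shown above. It had 5534, 5178, 5633 and 5076 normalized counts in penk-/- chimeras. The penk+/+ values were 5245, 5209, 5760 and 5226, of which replicate 3 stands above the other 3 mice. The means were 5355 ± 270 and 5360 ± 267, which makes Ccng1 the gene with the smallest difference of the 10 (log2 fold change -0.0014, interval -0.14 to 0.13, limma adjusted p = 0.997) and, with a coefficient of variation of 5.01%, also the least variable. Nudcd2, a gene on the opposite strand that overlaps it, had a log2 fold change of 0.18.

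Bax (ENSMUSG00000003873, chr7:45111015-45116325) and Bbc3 encode proteins of the mitochondrial pathway of apoptosis. Bax forms the pore in the outer membrane of mitochondria, and PUMA, the product of Bbc3, is a BH3-only protein that sets Bax free. Bax had 499.8, 497, 550 and 565 normalized counts among penk-/- and 530.2, 486, 491 and 419 in penk+/+ chimeras. It was highest in 2 penk-/- chimeras and lowest in penk+/+ replicate 4, and the genotypes overlapped. The log2 fold change was 0.14 (interval -0.07 to 0.34, limma adjusted p = 0.682, exact permutation test, two-sided, p = 0.143). Without the 2 libraries rich in Pbsn it was 0.05 (limma adjusted p = 0.920).

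Bbc3 (ENSMUSG00000002083, chr7:16042318-16052130) had 248, 330, 181 and 277 normalized counts in penk-/- chimeras, and the penk+/+ chimeras had 416, 410, 358 and 264. In 3 penk+/+ chimeras it was above all penk-/- values, whereas penk+/+ replicate 4 lay within their range. The means were 259 ± 62.0 and 362 ± 70.2 (SD, n = 4 each), a fold of 0.712 (95% interval 0.519 to 0.976) and a log2 fold change of -0.49. With limma its unadjusted p was 0.0374 and its adjusted p 0.488 (exact permutation test, two-sided, p = 0.0857). It was also the most variable of the 10 genes, with a coefficient of variation between mice of 21.8%. Without the 2 libraries rich in Pbsn, each of which held the lowest Bbc3 value of its genotype, the log2 fold change was -0.47 (unadjusted p = 0.00789, limma adjusted p = 0.425, 3 mice per genotype). Without penk-/- replicate 3 it was -0.33 (adjusted p = 0.703 with limma).

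Zmat3 (ENSMUSG00000027663, chr3:32388941-32420163) encodes a zinc-finger protein that binds RNA and acts on splicing and mRNA stability downstream of p53. It is the gene with the element without mismatch shown above. Zmat3 had 1847, 1780.1, 1946 and 1746 normalized counts in penk-/- chimeras. In penk+/+ chimeras it had 1676, 1457, 1645 and 1548, each below the lowest penk-/- value. The means were 1830 ± 88.4 and 1581 ± 99.5 (SD, n = 4 each), a fold of 1.16 (95% interval 1.04 to 1.28) and a log2 fold change of 0.21 (standard error 0.07). The exact permutation test gave the smallest two-sided p it can give, 0.0286, while the unadjusted p was 0.0101 and the adjusted p 0.396 with limma. Without the 2 libraries rich in Pbsn the log2 fold change was 0.17 (unadjusted p = 0.0528, limma adjusted p = 0.552).

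Phlda3 (ENSMUSG00000041801, chr1:135693809-135697686) encodes a pleckstrin homology domain protein that competes with the kinase Akt for membrane lipids. It had 307.0, 457, 554 and 382 normalized counts in penk-/- chimeras against 347, 323, 366 and 313 in penk+/+ chimeras. Of the 4 penk-/- chimeras, 3 were above every penk+/+ chimera, and penk-/- replicate 1 was below all of them. The fold was 1.23 (95% interval 0.952 to 1.59), with a log2 fold change of 0.30 and an adjusted p of 0.610 with limma (exact permutation test, two-sided, p = 0.2). The spread in penk-/- chimeras (SD 105.5) exceeded that in penk+/+ chimeras (SD 23.8). Leaving out penk-/- replicate 1 gave a log2 fold change of 0.45 (unadjusted p = 0.00957, limma adjusted p = 0.308), and leaving out penk-/- replicate 3 gave 0.16 (limma adjusted p = 0.818). Without the 2 libraries rich in Pbsn it was 0.13 (limma adjusted p = 0.866).

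Eda2r (ENSMUSG00000034457, chrX:96320270-96420847), a receptor of the tumour necrosis factor receptor family that binds ectodysplasin A2, had 236, 301.1, 399 and 302 normalized counts in penk-/- chimeras. The penk+/+ values were 278, 289, 373 and 267. Replicate 3 was the highest of each genotype, and the lowest value was that of penk-/- replicate 1. The log2 fold change was 0.03 (interval -0.35 to 0.40, limma adjusted p = 0.979). It was -0.16 without the 2 libraries rich in Pbsn, penk-/- replicate 3 among them (limma adjusted p = 0.826).

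Sesn2 (ENSMUSG00000028893, chr4:132219335-132237815) encodes sestrin 2, a leucine sensor that restrains mTORC1 and responds to the transcription factor ATF4 as well as to p53. It had 416, 433, 509 and 557 normalized counts in penk-/- chimeras. In penk+/+ chimeras it had 406, 373, 375 and 566, so that 3 of the 4 lay below every penk-/- value and the fourth above all of them. The log2 fold change was 0.17 (interval -0.18 to 0.51, limma adjusted p = 0.774). It was 0.27 without the 2 libraries rich in Pbsn (limma adjusted p = 0.576), 0.31 without penk+/+ replicate 4 alone (limma adjusted p = 0.443) and 0.09 without penk-/- replicate 4 (limma adjusted p = 0.939).

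**Figure D2:**
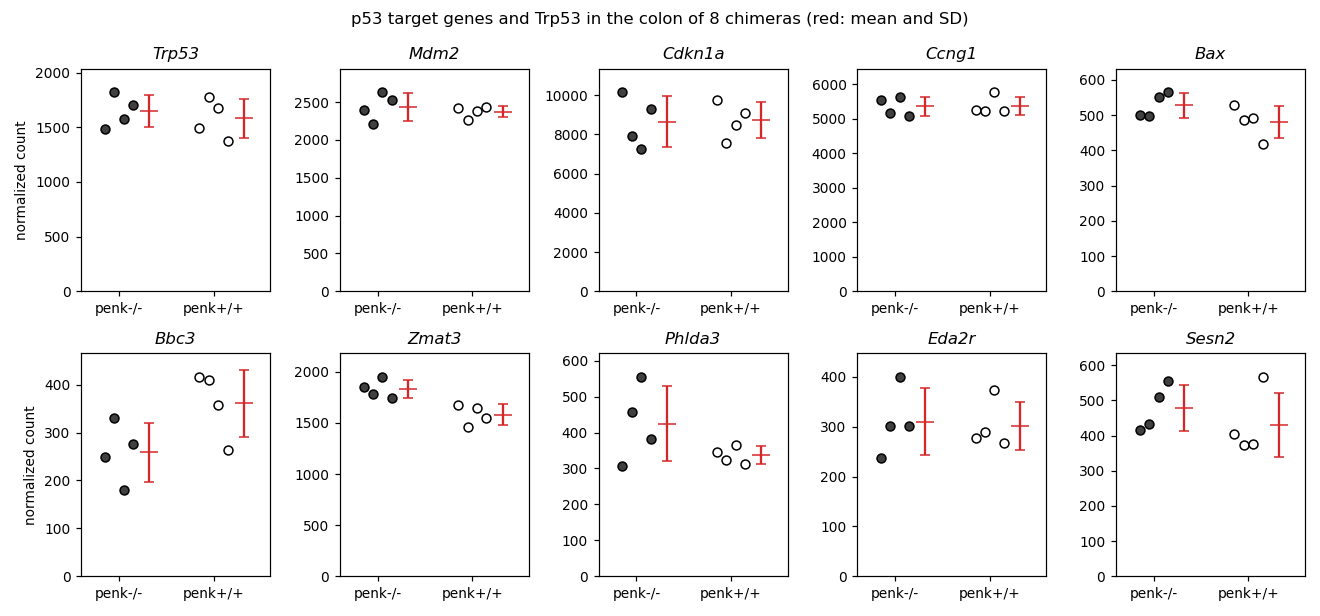
Normalized counts of the 10 genes in each of the 4 penk-/- (filled circles) and 4 penk+/+ chimeras (open circles), 1 panel per gene, with the mean and SD of each genotype in red, and each vertical axis starts at 0. Only in the Zmat3 panel do all filled circles lie above all open circles.

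The genes differed widely in level. Per kilobase of exon, and as a mean of the 8 libraries, Cdkn1a had 1438 normalized counts per kilobase and Ccng1 1218, and their ranges over the mice overlapped. Mdm2 followed at 312, Bax at 272 and Trp53 at 219, with overlap of neighbours in this order. Zmat3 (149), Phlda3 (147), Sesn2 (100.1), Bbc3 (64.8) and Eda2r (40.8) followed, and each of these also overlapped with the next. The ranges did not overlap between Ccng1 and Mdm2, whose values reached down to 1154 and up to 341 per kilobase, nor between Trp53 (down to 187) and Zmat3 (up to 170.1), although Phlda3, with values up to 214, overlapped with Trp53. Cdkn1a and Ccng1 thus stood apart at the top, whereas the BH3-only gene Bbc3 and the receptor Eda2r stood lowest. A union of exons was used as length, so that a gene with a long exon seldom used has a level per kilobase that is too low.

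Each gene had at least 223 reads in every library, where counting error is at most 6.70%, and 6902 to 10623 reads for Cdkn1a. The variation between mice within genotypes ran from 5.01% (Ccng1) to 21.8% (Bbc3). Mdm2, Ccng1, Zmat3 (5.61%) and Bax (8.19%) varied least, and Bbc3, Eda2r (19.1%), Phlda3 (18.2%) and Sesn2 (18.0%) most.

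The 10 genes did not move as a block from mouse to mouse. Of their 45 pairs, 28 had a positive and 17 a negative correlation of log2 levels over the 8 libraries, with a median r of 0.10. The closest pair was Phlda3 and Eda2r (r = 0.761, permutation p = 0.0306, adjusted p = 0.516, rho = 0.881, permutation p = 0.00724, adjusted p = 0.326, r = 0.742 without the 2 libraries farthest from the median). The most opposed pair was Cdkn1a and Eda2r (r = -0.697, permutation p = 0.0567, adjusted p = 0.516). Taken as an average over the 10 genes, the log2 level relative to the gene mean was -0.07, 0.03, 0.07 and 0.06 in penk-/- replicates 1 to 4. In penk+/+ replicates 1 to 4 it was 0.02, -0.05, 0.03 and -0.08. The genotypes differed in it by 0.04, which is less than the SD between mice of 0.06. Phlda3 and Eda2r were among the lowest of the 10 in penk-/- replicate 1, where Cdkn1a was highest, and they were the highest in penk-/- replicate 3, where Bbc3 and Cdkn1a were lowest.

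**Figure D3:**
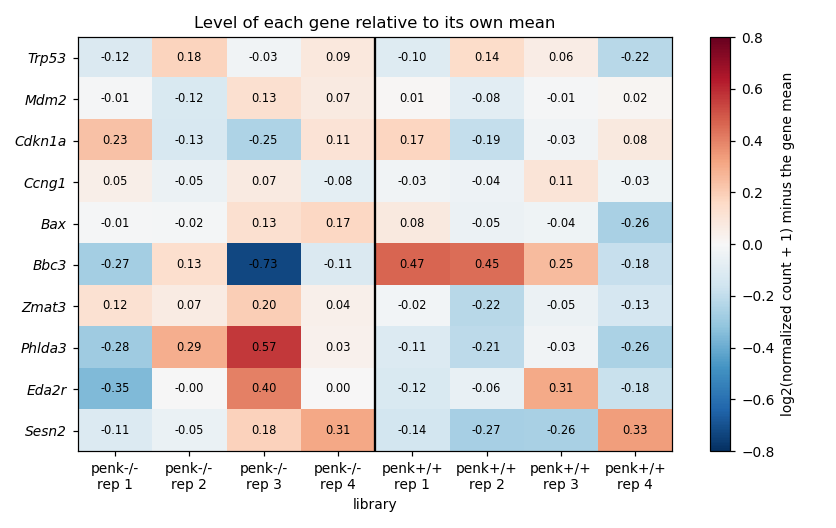
Level of each of the 10 genes (rows) in each library (columns, 4 penk-/- left of the line, 4 penk+/+ right of it) on the log2(normalized count + 1) scale, centred for each gene, printed in each cell and coloured from blue (lower) to red (higher). The values reach from -0.73 (Bbc3) to 0.57 (Phlda3), both in penk-/- replicate 3, and Zmat3 is above 0 in all penk-/- and below 0 in all penk+/+ chimeras.

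The libraries differed in their balance of smooth muscle and epithelial marker RNA. A score of 10 smooth muscle markers minus 12 epithelial markers, on the log2 scale, was -0.51, 0.45, 0.52 and 0.04 in penk-/- replicates 1 to 4 and -0.55, -0.04, 0.39 and -0.30 in penk+/+ replicates 1 to 4. The genotypes overlapped in it. Eda2r followed this score with r = 0.849 (permutation p = 0.00516, adjusted p = 0.103 over 20 relations, rho = 0.857, permutation p = 0.0107, adjusted p = 0.154, r = 0.863 without the 2 libraries farthest from the median). Phlda3 followed it with r = 0.799 (permutation p = 0.0119, adjusted p = 0.119, rho = 0.833, permutation p = 0.0154, adjusted p = 0.154, r = 0.854 without the farthest 2). Cdkn1a went the opposite way, with r = -0.799 (permutation p = 0.0250, adjusted p = 0.166, rho = -0.786, permutation p = 0.0279, adjusted p = 0.186, r = -0.664 without the farthest 2). None of the 20 relations passed an adjusted p of 0.05. With the genotype means removed from both measures, r was 0.878 for Eda2r, 0.788 for Phlda3 and -0.826 for Cdkn1a. Zmat3 had r = 0.286 and Mdm2 r = 0.03 with the score. With the score as a covariate the log2 fold change of Zmat3 was 0.21 (limma adjusted p = 0.305) and that of Bbc3 -0.48 (limma adjusted p = 0.452), whereas that of Phlda3 was 0.18. For log2 Pbsn, the largest of the 10 relations was that of Sesn2 (r = 0.594, permutation p = 0.127, adjusted p = 0.475). With log2 Pbsn as a covariate the log2 fold change was 0.21 for Zmat3 and -0.49 for Bbc3.

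**Figure D4:**
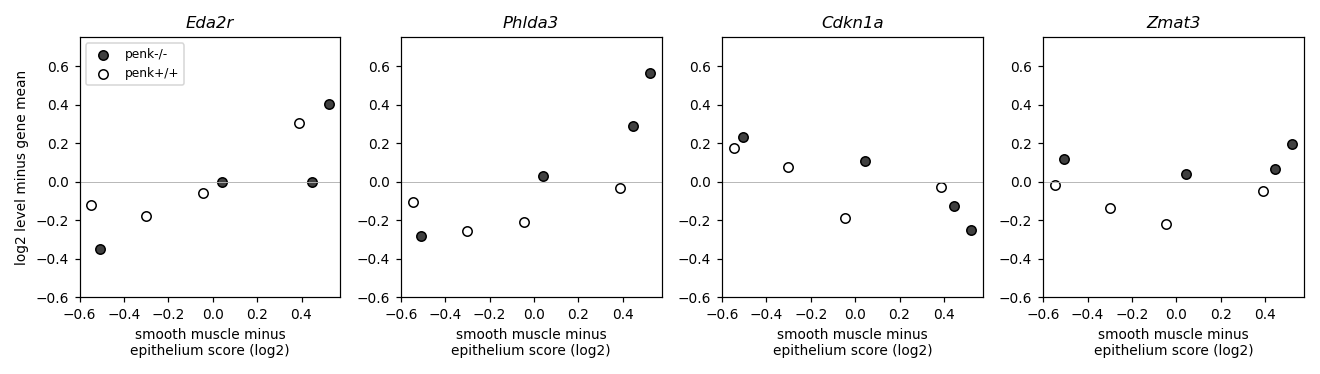
Log2 level of Eda2r, Phlda3, Cdkn1a and Zmat3, each minus its mean, in the 8 libraries (vertical axis), against the smooth muscle minus epithelium marker score of the library (horizontal axis, log2), with penk-/- as filled and penk+/+ as open circles. Eda2r (r = 0.849) and Phlda3 (r = 0.799) are higher and Cdkn1a (r = -0.799) lower in libraries with more muscle markers, and the genotypes are mixed along the axis.

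The wider p53 pathway was described with 40 other targets, of which 38 were tested. They were split evenly, 19 higher and 19 lower in penk-/- chimeras, with a median log2 fold change of -0.0046, and 0 had an adjusted p below 0.05 with limma. At an unadjusted p below 0.05, 6 of 38 were higher and 3 lower, beside 4.3% and 5.33% of all genes. The genotypes did not overlap for 2 higher and 3 lower genes, beside 2.89% and 2.74% of all genes. Gtse1, a gene of the G2 phase whose product binds p53, had 278 to 322 normalized counts among penk-/- and 184 to 245 in penk+/+ chimeras, without overlap (log2 fold change 0.48, standard error 0.12, limma adjusted p = 0.339). Aen, a nuclease of apoptosis, had 986 to 1288 against 824 to 942, also without overlap (log2 fold change 0.29, limma adjusted p = 0.408). Plk2, a polo-like kinase, had 717 to 1270 against 714 to 814 (log2 fold change 0.43). On the other side, Pmaip1, which encodes the BH3-only protein Noxa, had 1865 to 3651 in penk-/- and 3719 to 4004 in penk+/+ chimeras, without overlap (log2 fold change -0.52, standard error 0.17, limma adjusted p = 0.402). Gdf15, a secreted stress cytokine, had 177 to 220.2 against 212 to 326 (log2 fold change -0.53, limma adjusted p = 0.353). The other 4, named here after their values were seen, were Plk3, Polh and Tigar (higher) and Trp53inp1 (lower). Bbc3 and Pmaip1, both BH3-only genes, had their lowest value in the same mouse, penk-/- replicate 3, which is also one of the 2 libraries rich in Pbsn and the one with the lowest score of epithelial markers (-0.36). Without this library the log2 fold change of Pmaip1 was -0.35 (limma adjusted p = 0.517), and without both libraries rich in Pbsn it was -0.37 (limma adjusted p = 0.432).

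Of 21 regulators of p53 and kinases of the DNA damage response, 9 were higher and 12 lower, beside 51.1% of all genes higher. Their median log2 fold change was -0.0028. Mre11a, a nuclease that senses double-strand breaks, was the exception at an unadjusted p below 0.05, where 4.3% of all genes were higher. It had 992 to 1044 normalized counts among penk-/- and 853 to 946 in penk+/+ chimeras (log2 fold change 0.17, limma adjusted p = 0.432). Cdkn2a, which encodes the Mdm2 inhibitor Arf and marks senescent cells, had 0 to 5 reads per library in both genotypes and was not tested.

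Of 19 genes of the BCL2 family and of the caspase cascade, 5 were higher and 14 lower, beside 51.1% of all genes higher. Their median log2 fold change was -0.07. At an unadjusted p below 0.05, 3 were lower (5.33% of all genes) and 0 higher (4.3%). Among the 3 were Bmf, a further BH3-only gene (log2 fold change -0.40), and Cycs, which encodes cytochrome c (log2 fold change -0.23). Epithelial markers were lower in the same direction, 11 of 12, with a median of -0.16 and 0 at an unadjusted p below 0.05, and their summed level was 662163 to 924280 in penk-/- and 836566 to 1008640 in penk+/+ chimeras. Their part in the values of the apoptosis genes was not tested. Slc26a3, the chloride exchanger of colonocytes, had the largest difference of these markers (log2 fold change -0.36, limma adjusted p = 0.647).

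Cell cycle genes that p53 is known to repress through p21 were higher in penk-/- chimeras, 20 of 20 beside 51.1% of all genes, with a median log2 fold change of 0.25 and a range of 0.08 to 0.34. At an unadjusted p below 0.05, 7 of 20 were higher (4.3% of all genes), 0 had an adjusted p below 0.05, and 0 were without overlap between the genotypes (2.89% of all genes with penk-/- higher). Birc5, which encodes survivin, had 775 ± 82.0 normalized counts with penk-/- and 621 ± 78.3 with penk+/+ donors (SD, n = 4 each, log2 fold change 0.32, limma adjusted p = 0.420). Cdk1, the kinase of mitosis, had a log2 fold change of 0.32, cyclin A2 (Ccna2) 0.34, cyclin B1 (Ccnb1) 0.30 and the checkpoint kinase Bub1b 0.30. These genes are known to be expressed together in dividing cells, so that they are not 20 separate observations. Without the 2 libraries rich in Pbsn, 19 of 20 were higher, and without penk+/+ replicate 4 alone 18 of 20. Over all alternatives of processing the number ran from 18 to 20. Cdkn1a itself, as given above, had a log2 fold change of -0.02.

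Genes of the ATF4 response, the other pathway to Sesn2, were higher for 9 of 11 when Sesn2 itself was left out. This was so for 51.1% of all genes, and the median log2 fold change of the 11 was 0.10. Among the higher ones was Atf4, with 4507 to 6156 against 4015 to 4950 normalized counts (log2 fold change 0.24, limma adjusted p = 0.506). Glucocorticoid-responsive genes were lower for 7 of 11 and higher for 4 (median -0.12). Klf9, a transcription factor of this response, had 3588 to 4186 against 4483 to 5240 normalized counts (log2 fold change -0.31, limma adjusted p = 0.339). Nfkbia, the inhibitor of NF-kB, had 1652 to 2357 against 2394 to 4189 (log2 fold change -0.65, limma adjusted p = 0.341). For both, the genotypes did not overlap, which was so with penk-/- lower for 2.74% of all genes. Glucocorticoids are known to induce Nfkbia, as NF-kB itself does.

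**Figure D5:**
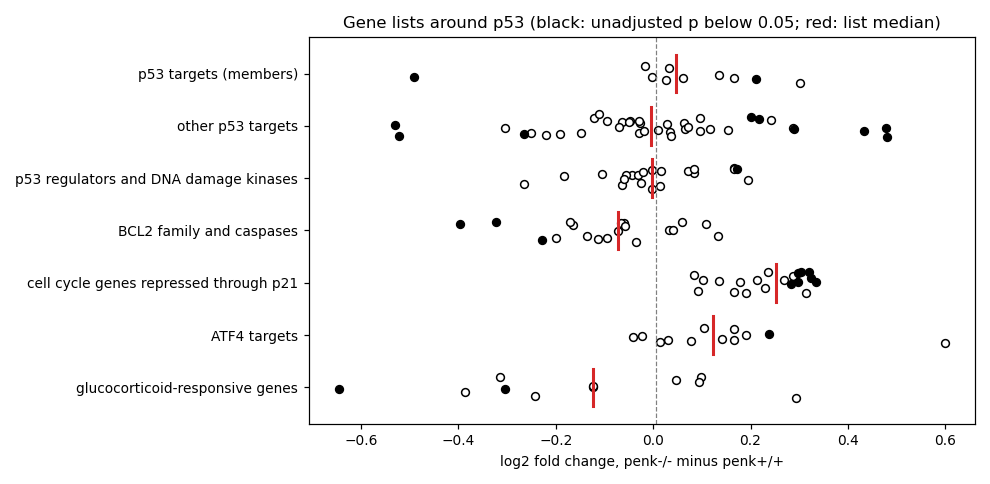
Log2 fold change (penk-/- minus penk+/+) of each gene tested in 7 lists, 1 line per list. Sesn2 is in the line of the 10 genes and in that of the ATF4 targets. Apaf1 is in the lines of the other p53 targets and of the BCL2 family. Chek1 is in the lines of the p53 regulators and of the cell cycle genes. Filled circles have an unadjusted p below 0.05 with limma, red bars mark the median of a list and the dashed line the median of all genes (0.0051). The medians run from -0.12 (glucocorticoid-responsive genes) to 0.25 (cell cycle genes), and no circle passes an adjusted p of 0.05.

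Other cell types were followed by their markers, and the counts stand beside the 51.1% of all genes that were higher. Of 10 smooth muscle markers 7 were higher (median log2 fold change 0.07, Myocd 0.22), of 13 leukocyte markers 8 (median 0.14, from -0.80 for the T cell gene Cd3e to 0.88 for the mast cell protease Cpa3), of 12 markers of enteric neurons and glia 4 (median -0.05) and of 5 accessory gland markers 3 (median 0.03, Azgp1 0.36). In none of these lists did a gene pass an unadjusted p of 0.05. Leukocytes are the cells that carry the donor genotype, and their summed markers ranged from 10671 to 16109 normalized counts among penk-/- and from 9501 to 14842 in penk+/+ chimeras. The sum includes Kit (2572 on average), a gene not confined to leukocytes, so it does not measure donor cells alone.

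Over the 8 libraries, the genes whose level was most like that of Cdkn1a, of 19126 compared, were Tet3 (r = 0.985), Prkra (r = 0.984) and Fam83h (r = 0.979). Those most like the mean of the 10 genes, of 19117 compared, were Cd300ld3 (r = 0.959), Psma5-ps (r = 0.928) and Ptrh2 (r = 0.927). These are the highest of many correlations over few libraries that share their tissue make-up, and they are given as a description.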

How the data were processed

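Colon RNA of 4 penk-/- and 4 penk+/+ chimeras was sequenced as stranded, paired-end poly-A libraries, 1 per mouse. The authors checked reads with FastQC, used STAR 2.7.8a on GRCm39 for alignment and counting, and analysed the counts with DESeq2 1.30.0. The deposited values are a signal per gene and library: read counts scaled by size factors, neither raw counts nor logarithms. All values of a library (100%) were multiples of a single step (tolerance 0.001), and reads were derived from this step. Names came from the GENCODE M39 annotation of GRCm39, which matched 25776 of 26008 identifiers.

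Genotypes were compared with limma 3.58.1 (R 4.3.3; lmFit, eBayes with trend) on log2(value + 1), over 19127 genes with a mean of at least 10, two-sided, without covariates, with Benjamini-Hochberg adjustment. All 10 genes passed this filter. Fold changes on this scale are slightly too small for low genes. Single genes also had an exact permutation test, and relations a permutation test (Python 3.11.15, scipy 1.17.1). The script was tested on simulated data. Tissue scores are the mean centred log2 level of marker lists. The 10 genes and all lists were chosen with earlier results of these data known. Lists were described by counts and medians and were not tested. Besides the 10 genes, each list names its genes with an unadjusted p below 0.05 (at most 5, by p), otherwise the one with the largest difference, and 3 genes most correlated with Cdkn1a and with the mean of the 10. The values of 2 genes that this rule names are not reported here. Whether counting used the strand is not given in the sources used here, so reads of overlapping antisense genes may be shared. Intervals of levels cover the spread between mice. Alternatives were pseudocounts of 0.1 and 8, other filters, quantile normalization, limma without trend, a factor for replicate number, tissue score or Pbsn as a covariate, libraries left out and, chosen after seeing the data, voom on the derived reads.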

Additional observations from a re-analysis of the deposited data

Results flagged for a closer look

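In the 20 groups of 4 mice formed by the 10 genes and the 2 genotypes, the highest or lowest mouse stood far from the other 3 in 2, where chance flags about 1 group in 20. Ccng1 in penk+/+ replicate 3 had 5760.4 normalized counts against 5209 to 5245 in the other penk+/+ chimeras, and its gap to the nearest of them was 0.9352 of the range of the group. Sesn2 in penk+/+ replicate 4 had 566 against 373 to 406, with a gap of 0.8292 of the range, barely past the limit for groups of 4. This library is also the one with the most Pbsn (111024 normalized counts), whose part in the value was not tested.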

How the results depend on the processing

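In all 19 alternatives, 0 of the 10 genes had an adjusted p below 0.05. The log2 fold change of Zmat3 ranged from 0.17 to 0.24 (adjusted p from 0.185 to 0.663 with limma; unadjusted p below 0.05 in 18 of 19) and that of Bbc3 from -0.63 to -0.33 (adjusted p from 0.279 to 0.739 with limma; 12 of 19). The number of the 10 genes with an unadjusted p below 0.05 was 2. It was 1 with the tissue score as a covariate, 1 without the 2 libraries with the most Pbsn, 1 without trend and 1 to 3 when each replicate was left out in turn. Genes with an adjusted p below 0.05 numbered 1 with quantile normalization, 1 with the tissue score and 0 to 6 with a replicate left out (6 without penk-/- replicate 1). The median of the 10 genes was 0.025 to 0.128 with a replicate left out (0.128 without penk-/- replicate 1). Small differences turned sign. Cdkn1a was at 0.061 with quantile normalization, 0.073 with the tissue score, 0.086 without the 2 libraries and -0.097 to 0.063 with a replicate left out. Ccng1 was at 0.033 with quantile normalization and -0.026 to 0.034 with a replicate left out. Eda2r was at -0.11 with the tissue score, -0.16 without the 2 libraries and -0.105 to 0.146 with a replicate left out. Mdm2 (-0.0041 to 0.080) and Trp53 (-0.0030 to 0.119) turned only with a replicate left out. The causes were not tested.

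With the replicate block, 1 gene had an adjusted p below 0.05 and 2938 an unadjusted p below 0.05 (1842 without it), and 2 of the 10 genes had an unadjusted p below 0.05. The labels do not say whether same-numbered mice were paired. Same-numbered libraries had correlations of their deviations from -0.321 to 0.145, which are too few to decide it. The planned edgeR and DESeq2 fits were not run, because the derived reads of penk-/- replicate 1, whose size factor (0.990) is close to 1, were not accepted as counts. All its values (100%) were multiples of a single step, as in the other libraries. Reads given for this library, and its reads in the voom fit, rest on that step.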
